A study of Homo sapiens with 6 samples.

Results

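The cancer-testis antigen genes are a group of gene families that are silent in most healthy tissues outside the testis and active again in many tumours, melanoma among them. Their members here were chosen by annotation: the protein-coding genes of GENCODE release 29 whose symbol begins with MAGEA, MAGEB, MAGEC, GAGE, PAGE, XAGE, SSX, CT45A, CSAG or CTAG, and PRAME. The families themselves were selected on earlier results of the comparison reported here, so counts and values of the members are given as a description. The rule took 81 of the 58721 genes in the count table. Of these, 74 belong to the named families and 7 match a prefix alone, namely 6 CTAGE genes and SSX2IP, which encodes a partner of the SSX2 protein at centrosomes and cell junctions. Among the 74, 73 lie on chromosome X and PRAME lies on chromosome 22.

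RNA was sequenced from A375, an established human melanoma cell line. One group, called knockout, carried a CRISPR guide against SOX10, the transcription factor of neural crest, melanocyte and Schwann cell lineages, and the other, called control, a guide against mCherry, a fluorescent protein gene foreign to human cells. Each group had 3 libraries. The labels do not say whether libraries of a group are separate cultures, so p-values cover only the spread between libraries, which may be technical. The sources used here do not give the cut site of the guide, nor whether a pool or a single clone was sequenced.

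Cancer-testis genes are kept silent in somatic cells mainly by methylation of CpG dinucleotides in their promoters, and their proteins can be presented to T cells as tumour antigens. The X-linked families have multiplied by tandem and inverted duplication, and many copies are almost identical in sequence. The MAGE proteins of the A, B and C subfamilies bind RING-type ubiquitin ligases, the SSX proteins repress transcription together with Polycomb complexes, PRAME represses retinoic acid receptor signalling, and GAGE, PAGE and XAGE proteins are small and largely unstructured.

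Total counts were 70075002 to 78148565 per library, and 3 counts corresponded to 0.0382 to 0.0417 CPM (counts scaled to a library size adjusted for composition by TMM, the scaling of every CPM given here). SOX10 itself stood at 47.2, 47.8 and 41.5 CPM in knockout libraries and at 241, 237 and 223 CPM in control libraries, with no overlap (edgeR adjusted p = 1.84e-07, log2 fold change -2.36, SE 0.08). The members held 0.289% to 0.347% of all counts in knockout libraries and 0.276% to 0.352% in control libraries. Of 12 melanoma markers 11 were detectable enough to be tested. Of these 11, 2 were higher and 6 lower, against 14.0% in each direction over all tested genes. The neural crest marker S100B and the pigment enzyme gene DCT fell, while MITF and another pigment enzyme gene, TYRP1, rose. TYRP1 was weak, at 0.230 CPM in knockout and 0.0731 CPM in control libraries (log2 fold change 1.62, edgeR adjusted p = 0.0210). The antigen genes MLANA and PMEL stayed under 1 CPM in the mean of either group. Of 13 germ cell markers 9 could not be tested, and DAZL, NANOS2, PRM1, PRM2 and TNP1 had 0 counts in every library. The germ cell markers summed to 21.2 to 24.5 CPM in knockout libraries and 16.6 to 18.8 CPM in control libraries, and SOHLH2 made up most of it. SOHLH2 rose (log2 fold change 0.42, edgeR adjusted p = 0.00744). DMRT1 was also called higher (2.77, adjusted p = 0.0161), but near the floor. It averaged 0.166 CPM in knockout and 0.0230 CPM in control libraries, the control mean lying under the level of 3 counts. Fibroblast markers also stood higher as a sum, at 28.1 to 30.3 CPM in knockout libraries against 16.8 to 20.05 CPM in control libraries, with 7 of 10 genes higher and 1, PDGFRA, lower. LUM was the largest part, at 14.1 CPM in knockout and 7.84 CPM in control libraries. Of the higher genes, COL1A2, COL3A1 and THY1 were weak, at 0.261, 0.326 and 0.444 CPM in knockout libraries. Epithelial markers summed to 235.9 to 249 CPM in knockout and 179 to 187 CPM in control libraries, most of it KRT18. Of 7 tested, 4 were higher and 1 lower. The lower gene, KRT14, averaged 0.249 CPM in knockout and 7.16 CPM in control libraries (log2 fold change -4.83, edgeR adjusted p = 1.82e-07). Leukocyte markers summed to 1.52 to 2.28 CPM in knockout and 10.8 to 14.3 CPM in control libraries, most of it LYZ. The part of these markers in the results below was not tested, and in bulk RNA a smaller share of cells with a transcript cannot be told apart from less of it per cell.

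Of the 81 members, 55 had enough counts for the test, and 14 of them passed an adjusted p of 0.05, 11 higher and 3 lower in knockout cells. Among all 19263 genes tested, 28.0% passed, 14.0% higher and 14.0% lower; among the 546 tested protein-coding genes of chromosome X, 32.4% passed. The share of tested members called, 25.5%, was near both. The median log2 fold change over the tested members was 0.12, against -0.02 over all tested genes. The knockout and control libraries did not overlap for 18 of the 55 members (32.7%), against 41.6% of all tested genes. Most of the 11 higher calls came from a single family: 9 were GAGE genes, and the others were MAGEA10 and MAGEB2. The 3 lower calls were PRAME, MAGEA1 and SSX2B. No gene of the CT45A, PAGE, XAGE, CSAG, CTAG or MAGEC families passed. These counts are of genes that partly share reads, so the 9 GAGE calls are not 9 separate observations.

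**Figure D1:**
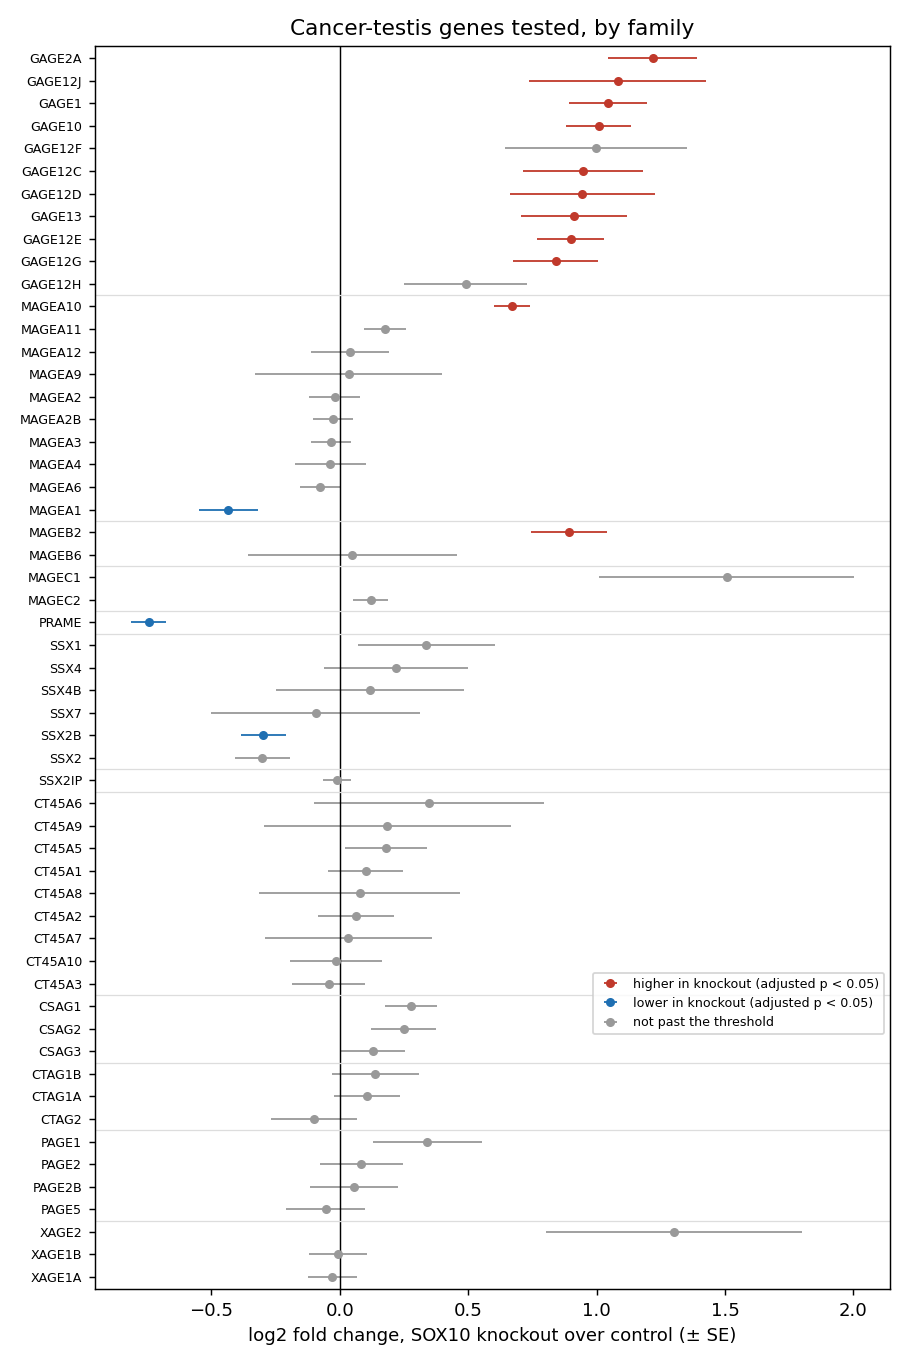
Log2 fold change (knockout over control, horizontal axis, 0 marked by the vertical line) of the 55 cancer-testis genes tested, grouped by family, with bars of 1 standard error. The GAGE genes all lie right of 0, 9 of 11 past the threshold (red), PRAME, MAGEA1 and SSX2B lie left of it (blue), and most other genes (grey) lie close to 0.

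Levels of different genes were compared as CPM per kilobase of annotated exon. On that scale MAGEA4 was the most abundant member in both groups, at 352 ± 45.8 in knockout and 361 ± 65.2 in control libraries (SD, n = 3 each), and it alone held 34.5% and 35.2% of the members' counts in knockout and control cells. It was followed by CT45A1 (253 ± 34.7 and 236 ± 45.4), PAGE5 (231.5 ± 34.4 and 240.3 ± 49.0), XAGE1A (162 ± 5.28 and 165 ± 22.8) and MAGEA3 (114 ± 7.06 and 116 ± 9.70), each with the knockout value first. CT45A1 and PAGE5 did not differ beyond their spread, and they changed places between the groups. The genes that moved sat lower. PRAME held rank 14 in knockout at 21.9 ± 0.856 and rank 13 in control at 36.7 ± 2.52, and MAGEA10 held rank 16 in knockout at 20.2 ± 0.524 and rank 20 in control at 12.7 ± 0.956. The most abundant GAGE gene per length, GAGE2A, reached 14.2 ± 2.93 in knockout and 6.10 ± 0.974 in control libraries. As sums of CPM, not divided by length, the GAGE genes held 31.5 in knockout and 15.5 in control libraries. The MAGEB sum was lower in both groups (3.33 and 2.00), and the CTAG sum only in knockout (24.6, against 22.9 in control). All further families with tested genes held more in both groups.

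**Figure D2:**
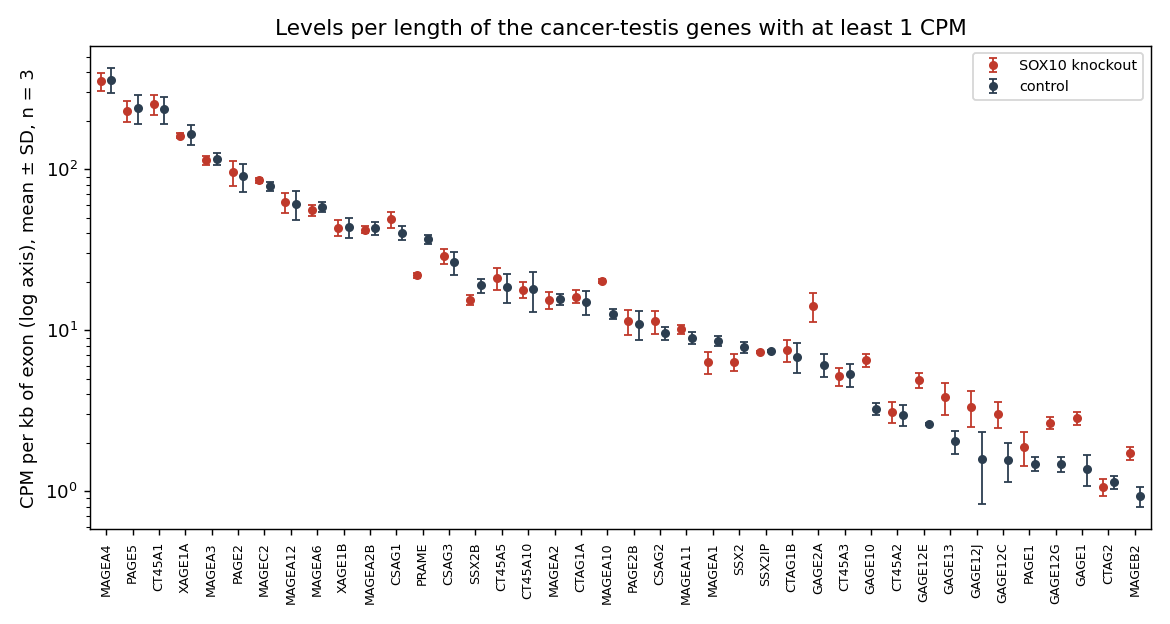
Mean ± SD (n = 3) of CPM per kilobase of exon on a log axis for the cancer-testis genes that averaged at least 1 CPM in one group or both, ordered by the control level, knockout in red on the left and control in dark blue on the right of each pair. From MAGEA4 at 352 and 361 the pairs overlap for most genes; the bars part at PRAME, SSX2B, SSX2, MAGEA1, MAGEA10 and, at the low end, the GAGE genes and MAGEB2.

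Summed over all members, the libraries held 2815, 3146 and 3463 CPM in knockout and 2750.2, 3059 and 3661 CPM in control cells. The ratio of the means, 0.995, was close to 1, and the group ranges overlapped almost fully. MAGEA genes made up 55.8% of this sum in knockout and 56.1% in control cells. The spread within each group was wide for some families and narrow for others. The CT45A sum had a coefficient of variation of 13.7% in knockout and 19.8% in control libraries and the PAGE sum 15.7% and 20.2%, whereas PRAME had 3.90% and 6.87% and the MAGEC sum 3.07% and 6.90%. The library numbered 3 had the highest members' sum in both groups, at 109.7% (knockout) and 116% (control) of the control mean, and the library numbered 1 the lowest, at 89.2% and 87.1%. In the fit without a term for the library number, a difference the size of that spread was therefore not detectable for the families that vary with it. With that number as a block, CT45A1 passed (log2 fold change 0.11, edgeR adjusted p = 0.0078), while CT45A2 (0.626) and CT45A10 (0.946) did not.

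The GAGE genes rose. They encode small acidic proteins found in male germ cells and in tumours, and their 13 annotated copies lie head to tail between positions 49303669 and 49608536 of chromosome X (GRCh38). GAGE1 (ENSG00000205777) stood at 8.35, 9.09 and 10.1 CPM in knockout libraries and at 3.91, 3.91 and 5.56 CPM in control libraries. GAGE2A (ENSG00000189064) stood at 5.96, 7.46 and 9.05 CPM in knockout and at 2.95, 2.90 and 3.81 CPM in control libraries. GAGE10 (ENSG00000215274), the first copy of the cluster, stood at 3.28, 3.36 and 3.90 CPM in knockout and 1.58, 1.78 and 1.87 CPM in control libraries. In each of these genes every knockout library lay above every control library, and the means were apart by 2.06-fold, 2.33-fold and 2.01-fold. The log2 fold changes were 1.04 (SE 0.15, edgeR adjusted p = 9.87e-04) for GAGE1, 1.22 (SE 0.17, adjusted p = 9.23e-04) for GAGE2A and 1.01 (SE 0.13, adjusted p = 4.34e-04) for GAGE10.

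The remaining copies pointed the same way. GAGE12E had 2.31, 2.49 and 2.82 CPM in knockout and 1.38, 1.36 and 1.34 CPM in control libraries (log2 fold change 0.90, SE 0.13, edgeR adjusted p = 0.00104). GAGE12G had 1.26, 1.42 and 1.50 CPM in knockout against 0.681, 0.822 and 0.832 CPM in control libraries (0.84, SE 0.17, adjusted p = 0.00562). Both kept a gap between the groups. GAGE13 had 1.60, 1.98 and 2.50 CPM against 1.11, 0.890 and 1.23 CPM (knockout against control; 0.91, SE 0.21, edgeR adjusted p = 0.0112, and 0.0508 without control replicate 2). GAGE12C had 1.32, 1.57 and 1.89 CPM against 0.890, 0.580 and 1.01 CPM in the same order (0.95, SE 0.23, adjusted p = 0.0169). GAGE12C lost its call without knockout replicate 2 (adjusted p = 0.0502), knockout replicate 3 (0.0600) or control replicate 2 (0.0524). GAGE12J, at 1.32, 1.86 and 2.22 CPM in knockout and 0.417, 0.930 and 1.21 CPM in control libraries, lay just inside the threshold (log2 fold change 1.08, SE 0.34, edgeR adjusted p = 0.0475). It fell outside without knockout replicate 2 (0.123) or 3 (0.140) or control replicate 1 (0.0659) or 2 (0.112). GAGE12D, at 0.345 ± 0.0254 CPM in knockout and 0.178 ± 0.0331 CPM in control libraries (SD, n = 3 each), was also inside (0.94, adjusted p = 0.0378), but not in DESeq2 (0.127), with all low genes kept in the fit (0.0853) or without any one library (0.0654 to 0.127).

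The 2 tested GAGE genes that were not called did not overlap between groups either. GAGE12F averaged 0.595 ± 0.137 CPM in knockout and 0.298 ± 0.132 CPM in control libraries (log2 fold change 1.00, edgeR adjusted p = 0.0715; 0.0238 without control replicate 3), and GAGE12H 0.990 ± 0.105 and 0.705 ± 0.201 CPM (0.49, adjusted p = 0.179). GAGE2E and GAGE12B had at most 2 counts in any library and were not tested. The copies are hard to separate. Of all 50-base stretches of the annotated GAGE12C, GAGE12D, GAGE12E and GAGE12G transcripts, 100% also occur in a transcript of another gene, and so do 85.2% of those of GAGE2A and 46.0% of those of GAGE10. Only GAGE1, whose 3237 annotated exon bases include a long stretch of its own, had a small share (12.9%). GAGE1 and GAGE2A overlap on the same strand by 75 exon bases. How the counting treated reads that match several copies is not stated in the sources used here, so the split between copies is uncertain. Added into a single row and fitted again, the 13 genes held 27.1, 31.4 and 36.1 CPM in knockout and 13.7, 14.5 and 18.3 CPM in control libraries. The groups stayed apart, with a log2 fold change of 1.03 (SE 0.13, edgeR adjusted p = 5.36e-04) and a 2.03-fold ratio of means.

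**Figure D3:**
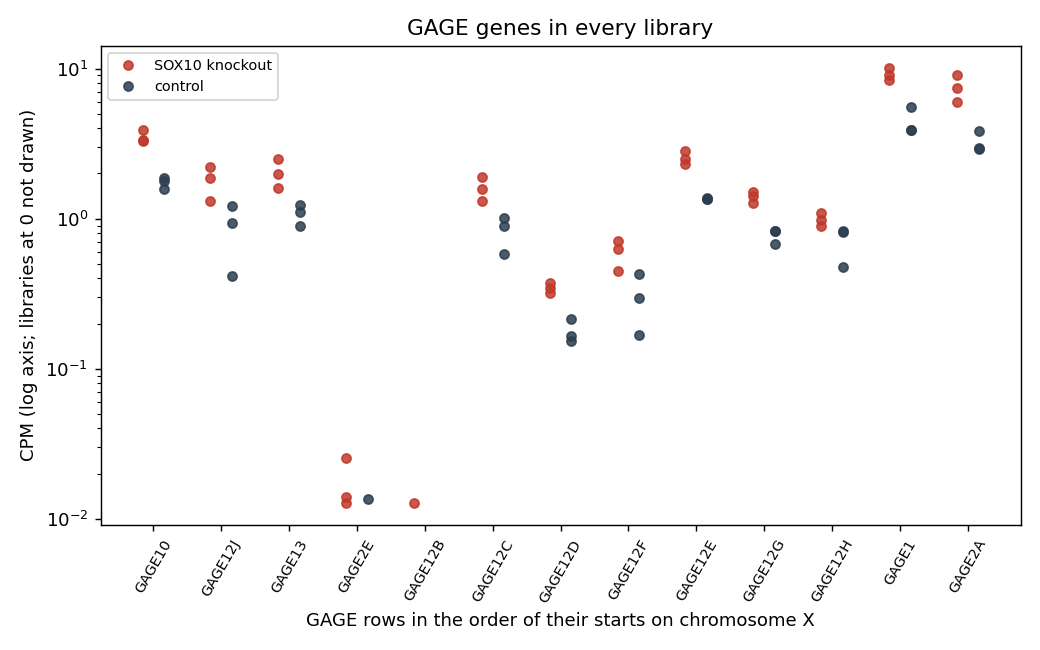
CPM on a log axis of the 13 GAGE rows in each library, in the order of their starts along chromosome X, knockout in red on the left and control in dark blue on the right; libraries with 0 counts are not drawn. In the 11 tested copies every knockout point lies above every control point, from 0.32 to 10.1 CPM in knockout and from 0.153 to 5.56 CPM in control libraries, while GAGE2E and GAGE12B lie at 2 counts or fewer.

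The promoters of these copies are nearly as alike as their transcripts. RefSeq windows of 300 bases (250 before to 50 after the start, GRCh38.p14) were found by gene symbol for 66 of the 81 members and for 12 GAGE genes. The window named GAGE12B (chrX:49340914-49341213) lies over the annotated start of GAGE2E (49341192). In the annotation used for the counts, GAGE12B starts at 49529869. Of the 12 GAGE windows, 7 were identical at every base. GAGE10 had the most divergent one. Aligned to the GAGE12C window with 2 gap bases, it matched 268 of 298 paired bases (89.9%), whereas the windows of the other GAGE genes matched each other at 99.6% or more. The windows of GAGE12C (chrX:49531927-49532226, plus strand) and GAGE10 (chrX:49303396-49303695, plus strand) are shown because they are the most frequent and the most divergent window of a family whose tested genes all stood higher, and that of PRAME (chr22:22559216-22559515, minus strand) because it moved the other way. Capitals mark CpG dinucleotides, the sites at which DNA methylation acts, 13 in GAGE12C, 11 in GAGE10 and 13 in PRAME.
GAGE12C: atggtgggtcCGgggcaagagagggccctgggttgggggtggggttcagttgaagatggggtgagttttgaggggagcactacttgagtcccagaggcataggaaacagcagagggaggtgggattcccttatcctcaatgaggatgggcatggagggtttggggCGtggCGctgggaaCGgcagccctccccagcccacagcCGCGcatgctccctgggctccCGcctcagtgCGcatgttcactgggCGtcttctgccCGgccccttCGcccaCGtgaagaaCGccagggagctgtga
GAGE10: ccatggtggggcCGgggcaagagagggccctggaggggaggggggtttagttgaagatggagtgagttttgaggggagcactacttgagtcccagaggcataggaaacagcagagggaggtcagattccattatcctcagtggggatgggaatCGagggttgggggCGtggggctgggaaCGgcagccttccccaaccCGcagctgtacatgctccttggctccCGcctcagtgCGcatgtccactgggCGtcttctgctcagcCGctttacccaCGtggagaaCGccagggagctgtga
PRAME: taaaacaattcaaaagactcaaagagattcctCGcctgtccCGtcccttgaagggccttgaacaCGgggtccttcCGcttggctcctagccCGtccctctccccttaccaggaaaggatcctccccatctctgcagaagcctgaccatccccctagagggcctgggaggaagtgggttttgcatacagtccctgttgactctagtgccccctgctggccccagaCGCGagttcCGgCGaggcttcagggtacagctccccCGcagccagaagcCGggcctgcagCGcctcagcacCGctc

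The 66 member promoters held a median of 13 CpG dinucleotides per 300 bases, against 14 in all 35116 promoters of the table. Near the end of both GAGE windows stands CACGTG, a palindrome known as the E-box that MITF, TFE and MYC factors can bind. It was present in all 12 GAGE promoters, in 10 of the 54 other members' promoters and in 7.26% of all promoters. The 12 are copies of each other and count as few independent cases. Among the 10 were CTAGE4, CTAGE6, CTAGE8, CTAGE9 and CTAGE15, which are also much alike and lie outside the named families. The rest of the 10 were PAGE1, PAGE2B, PAGE4, PAGE5 and XAGE3. The other motifs were read on both strands, and none contains another. The SOX-type cores ACAAAG and ACAATG stood in 8 (12.1%) and 4 (6.06%) of the 66 member promoters, against 16.1% and 10.8% of all promoters. The ETS-type core CCGGAA stood in 5 (7.58%), PRAME among them, against 17.3% of all promoters. A match describes letters in this window and not a bound site.

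MAGEA10 had the clearest increase outside the GAGE family. It encodes a MAGE protein of the A subfamily, which bind ubiquitin ligases in testis and tumours. MAGEA10 (ENSG00000124260; chromosome X, 152133310 to 152138578, minus strand) stood at 56.8, 58.8 and 59.8 CPM in knockout libraries and at 33.9, 37.0 and 39.4 CPM in control libraries. The groups were far apart beside their spread, 1.59-fold in the means (log2 fold change 0.67, SE 0.07, edgeR adjusted p = 1.63e-04). Of its 50-base stretches 15.7% occur in another gene, nearly all of them in the readthrough transcript MAGEA10-MAGEA5, which overlaps it on the same strand. MAGEB2 (ENSG00000099399; chromosome X, 30215560 to 30220089, plus strand), a B subfamily member known from testis, shares no 50-base stretch with another gene. The median share over the 11 MAGEB genes was also 0%. MAGEB2 stood at 3.06, 2.52 and 2.75 CPM in knockout libraries and at 1.31, 1.44 and 1.73 CPM in control libraries, again with no overlap (log2 fold change 0.89, SE 0.15, edgeR adjusted p = 0.00227).

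MAGEC1, which encodes a long repetitive MAGE protein of the C subfamily, lay just outside the threshold. It stood at 1.03, 0.907 and 0.536 CPM in knockout libraries and at 0.361, 0.431 and 0.0693 CPM in control libraries. The groups did not overlap, but the third control library was far below the others, and the log2 fold change of 1.51 had an SE of 0.50 (edgeR adjusted p = 0.0545). It passed in DESeq2 (adjusted p = 0.0129), with all low genes kept (0.0175), without knockout replicate 3 (0.0455) and without control replicate 3 (0.0446). MAGEC2, a far more abundant C subfamily member that stimulates the ubiquitin ligase activity of TRIM28, stood at 164, 171 and 174 CPM in knockout and 145, 155 and 167 CPM in control libraries. These ranges met, and MAGEC2 was not called (log2 fold change 0.12, SE 0.07, edgeR adjusted p = 0.240). XAGE2 differed by more but at very low level, at 0.278, 0.358 and 0.421 CPM in knockout against 0.0695, 0.0809 and 0.277 CPM in control libraries (log2 fold change 1.30, SE 0.50, edgeR adjusted p = 0.0900). It passed in limma-voom (adjusted p = 0.0448) and without control replicate 3 (0.00578).

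PRAME fell. Its product, a leucine-rich repeat protein first known as a melanoma antigen, serves as a substrate receptor of CUL2 ubiquitin ligases. PRAME (ENSG00000185686; chromosome 22, 22547701 to 22559361, minus strand) stood at 79.7, 86.1 and 82.7 CPM in knockout libraries and at 129.7, 138 and 149 CPM in control libraries. Each knockout library lay well below every control library, at 57.5% to 62.1% of the control mean. The log2 fold change was -0.74 (SE 0.07, edgeR adjusted p = 7.17e-05). No 50-base stretch of PRAME occurs in another gene's transcript, and 19 of its exon bases overlap an antisense gene.

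MAGEA1 and SSX2B also fell, by less. MAGEA1 (ENSG00000198681; chromosome X, 153179285 to 153183880, plus strand), the first MAGE gene to be cloned as a melanoma antigen, stood at 9.80, 10.00 and 12.8 CPM in knockout libraries and at 13.7, 14.4 and 15.9 CPM in control libraries (edgeR adjusted p = 0.0237, log2 fold change -0.43, SE 0.12). The gap between groups was small beside the spread, and the call was lost without knockout replicate 1 (adjusted p = 0.0696), knockout replicate 2 (0.106) or control replicate 2 (0.0693). SSX2 and SSX2B are inverted copies that encode a repressor which associates with Polycomb-marked chromatin. SSX2B (ENSG00000268447; chromosome X, 52751132 to 52790305, plus strand) stood at 32.2, 35.9 and 36.4 CPM in knockout and 39.5, 41.5 and 47.5 CPM in control libraries (log2 fold change -0.30, SE 0.09, edgeR adjusted p = 0.0344). Its call was lost without any one of 5 libraries (adjusted p = 0.0522 to 0.104), the exception being control replicate 1. SSX2 stood at 8.92, 9.21 and 11.2 CPM in knockout and 10.9, 12.6 and 12.6 CPM in control libraries, with overlap (-0.30, SE 0.11, adjusted p = 0.0737). Every 50-base stretch of SSX2 also occurs in another gene. The copies added together gave a log2 fold change of -0.29 (SE 0.08, edgeR adjusted p = 0.0337).

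**Figure D4:**
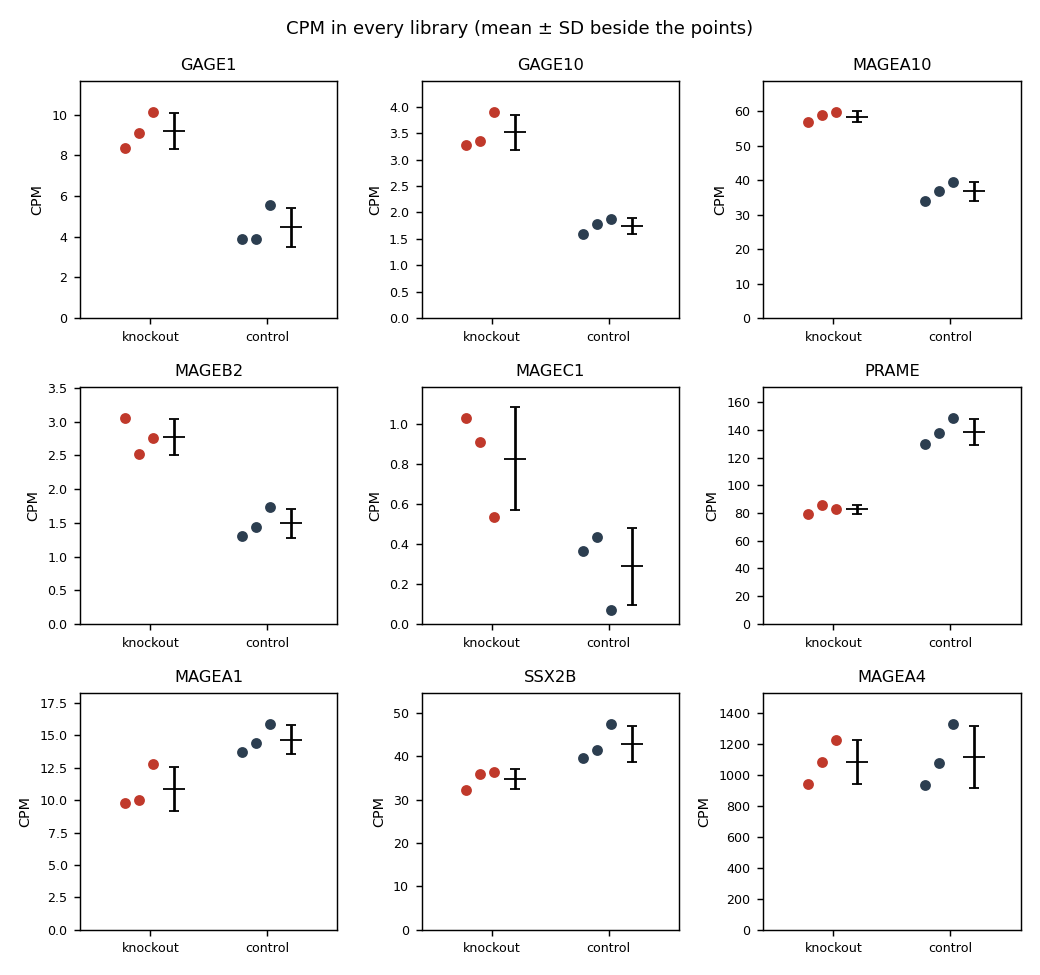
CPM in each library (points; vertical axes start at 0) with the mean ± SD of 3 libraries beside them, knockout on the left and control on the right, for 9 cancer-testis genes. GAGE1, GAGE10, MAGEA10 and MAGEB2 lie higher in knockout, PRAME, MAGEA1 and SSX2B lower, MAGEC1 is separate but spread, and the MAGEA4 groups overlap between 943 and 1225 CPM.

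The other MAGEA genes, which hold most of the members' counts, were not called. MAGEA4 stood at 943, 1084 and 1225 CPM in knockout and 931, 1078 and 1328 CPM in control libraries, almost the same range (log2 fold change -0.04, SE 0.14, edgeR adjusted p = 0.882). MAGEA3, which with MAGEA6 binds TRIM28 and targets AMPK for degradation, stood at 190.4, 204 and 216 CPM in knockout and 192, 205 and 227 CPM in control libraries. Here too each group covered the other (log2 fold change -0.03, SE 0.08, edgeR adjusted p = 0.796). MAGEA6 stood at 95.0, 107 and 109 CPM in knockout and 101, 108 and 117 CPM in control libraries (-0.08, SE 0.08, adjusted p = 0.542). MAGEA12 ranged from 105 to 139.6 CPM in knockout and 98.4 to 145 CPM in control libraries, MAGEA2B from 98.4 to 107 and 95.9 to 115 CPM, and MAGEA2 from 30.7 to 39.0 and 32.8 to 38.3 CPM. Their ranges overlapped, and their log2 fold changes lay between -0.03 and 0.04. MAGEA11, a coactivator of the androgen receptor, stood at 32.5, 35.4 and 37.1 CPM in knockout and 28.2, 31.5 and 33.2 CPM in control libraries (0.18, SE 0.08, edgeR adjusted p = 0.158). MAGEA3 and MAGEA6 share 56.5% and 53.9% of their 50-base stretches with other genes and MAGEA2 and MAGEA2B 96.4% and 88.1%, whereas MAGEA4 shares 2.69%. Added as copies, MAGEA3 with MAGEA6 gave a log2 fold change of -0.04 (edgeR adjusted p = 0.758) and the MAGEA2 pair -0.02 (adjusted p = 0.914). The sign of these small differences turned with the scaling: by total counts MAGEA2, MAGEA2B, MAGEA3 and MAGEA4 stood slightly above 0.

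The CT45A genes encode nuclear proteins of germ cells and tumours, in a cluster of near-identical copies on chromosome X. CT45A1 stood at 288, 339 and 379.8 CPM in knockout and 266, 292 and 381 CPM in control libraries, with full overlap (log2 fold change 0.10, SE 0.14, edgeR adjusted p = 0.671). CT45A5 ranged from 20.7 to 28.3 CPM in knockout and 17.6 to 26.4 CPM in control libraries, CT45A10 from 16.3 to 20.2 and 15.0 to 24.1 CPM, CT45A3 from 5.32 to 6.81 and 5.25 to 7.31 CPM, and CT45A2 from 3.63 to 4.79 and 3.39 to 4.59 CPM. All these ranges overlapped, and CT45A6, CT45A7, CT45A8 and CT45A9 stayed under 1 CPM in both group means. The 9 copies shared a median of 96.1% of their 50-base stretches with other genes. As a sum they held 335, 393 and 442 CPM in knockout and 308, 339.6 and 446 CPM in control libraries (log2 fold change 0.11, SE 0.14, edgeR adjusted p = 0.651).

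PAGE and XAGE genes are distant relatives of GAGE, and none of their genes was called. PAGE5 stood at 147, 172 and 198 CPM in knockout and 147, 170.0 and 218 CPM in control libraries (log2 fold change -0.05, SE 0.15, edgeR adjusted p = 0.840). PAGE2 ranged from 52.8 to 75.1 CPM in knockout and 49.9 to 72.8 CPM in control libraries and PAGE2B from 4.93 to 6.90 and 4.78 to 6.88 CPM, and the pair added together gave 0.09 (adjusted p = 0.735). XAGE1A stood at 167, 175 and 178 CPM in knockout and 155, 171 and 203 CPM in control libraries (-0.03, SE 0.10, edgeR adjusted p = 0.865). XAGE1B ranged from 54.6 to 68.1 CPM in knockout and 55.0 to 71.2 CPM in control libraries, and the XAGE1 pair as a sum gave -0.01 (adjusted p = 0.936). In each of these genes the control libraries covered nearly the whole range of the knockout libraries. PAGE1, which follows the GAGE cluster on the chromosome, averaged 1.25 ± 0.298 CPM in knockout and 0.986 ± 0.0950 CPM in control libraries (SD, n = 3 each; log2 fold change 0.34, SE 0.21, edgeR adjusted p = 0.288).

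CSAG and CTAG genes lie among or near the MAGEA genes. CSAG1, first described in chondrosarcoma and later at centrosomes, stood at 47.3, 53.7 and 59.3 CPM in knockout and 39.4, 44.7 and 48.1 CPM in control libraries. The ranges met only at 1 knockout library, and the gene was not called (log2 fold change 0.28, SE 0.10, edgeR adjusted p = 0.0814). Its call turned on the scaling (0.0347 by total counts) and on single libraries (0.0290 without knockout replicate 1, 0.0341 without control replicate 3). CSAG2 ranged from 10.4 to 14.4 CPM in knockout and 9.49 to 11.3 CPM in control libraries and CSAG3 from 29.2 to 35.0 and 24.3 to 33.6 CPM. CSAG2 passed without knockout replicate 1 (log2 fold change 0.36, edgeR adjusted p = 0.0484, against 0.25 and 0.194 with all libraries). The antigen NY-ESO-1, a target of engineered T cells, is encoded by 2 copies, CTAG1A and CTAG1B. CTAG1A stood at 14.7, 15.8 and 17.7 CPM in knockout and 12.8, 14.2 and 17.8 CPM in control libraries, CTAG1B at 6.25, 7.75 and 8.59 CPM and 5.41, 6.85 and 8.28 CPM, and neither was called. The copies added together gave a log2 fold change of 0.13 (SE 0.13, edgeR adjusted p = 0.557). CTAG2, which encodes the related antigen LAGE-1, averaged 1.05 ± 0.129 CPM in knockout and 1.13 ± 0.106 CPM in control libraries (-0.10, adjusted p = 0.723).

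The rest of the members were weak or absent. MAGEA9, MAGEB6, SSX1, SSX4, SSX4B and SSX7 were tested at group means under 1 CPM, and none was called. SSX4 averaged 0.850 ± 0.286 CPM in knockout and 0.728 ± 0.104 CPM in control libraries, the highest of them. A further 26 members had too few counts for the test: 9 of the 11 MAGEB genes, all 6 CTAGE genes, and 2 each of the MAGEA, GAGE, PAGE, SSX and XAGE families and 1 MAGEC gene. Their largest count in a library was 13, and 4 of them (PAGE4, MAGEB4, MAGEB5 and CTAGE6) had 0 counts in all 6 libraries, where differences were not detectable at this depth. SSX2IP, the prefix match outside the families, stood at 63.4, 62.1 and 64.4 CPM in knockout and 64.9, 63.2 and 63.3 CPM in control libraries (log2 fold change -0.01, SE 0.05, edgeR adjusted p = 0.907) with a coefficient of variation of 1.82% and 1.55%.

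Tested genes beside the called members were called in both directions, except at PRAME, which had 1 tested neighbour. Around the GAGE cluster, 23 protein-coding genes within 500 kb were tested. Their median log2 fold change was 0.03, and 2 were higher and 5 lower, beside 28.0% called among all tested genes. The neighbour PPP1R3F, just before GAGE10, stood at 0.909 CPM in knockout and 1.11 CPM in control libraries (-0.29, edgeR adjusted p = 0.303). CLCN5, on the other side of the cluster, fell to 13.5 CPM in knockout, against 21.3 CPM in control libraries (-0.66, adjusted p = 1.60e-04). MAGEA10 had 3 tested neighbours: MAGEA4 was not called, GABRE rose (log2 fold change 3.08, edgeR adjusted p = 0.00203) and GABRA3 fell (-0.60, adjusted p = 7.08e-04). MAGEA1 had 17, of which 8 were MAGEA or CSAG members that were not called, 1 was higher and 1 lower. The tested neighbours of MAGEB2 were 3, with NR0B1 higher (1.84, adjusted p = 0.00135) and IL1RAPL1 lower (-0.40, adjusted p = 0.00242), and PRAME had 1, the weakly expressed ZNF280A, which was higher (0.84, adjusted p = 0.0460). Over the 493 tested X-linked protein-coding genes outside the families, 66 were higher and 98 lower (33.3% called).

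Related genes and regulators were read in lists. The type II MAGE genes, which are expressed in most tissues, gave no call: 8 of 12 were tested, none passed, and MAGED1 stood at 100.1 ± 4.11 CPM in knockout and 96.3 ± 3.04 CPM in control libraries (SD, n = 3 each; log2 fold change 0.06, edgeR adjusted p = 0.559). Other cancer-testis genes went both ways, with 8 of 42 higher and 9 lower and a median of 0.01, against 14.0% in each direction over all tested genes. Of these, SPANXB1 and SPANXA1, X-linked genes of sperm nuclear proteins, rose to 11.3 ± 1.18 and 1.28 ± 0.241 CPM in knockout, against 2.94 ± 0.515 and 0.211 ± 0.0278 CPM in control libraries. The sperm flagellum genes ROPN1 and ROPN1B fell to 0.125 ± 0.050 and 0.165 ± 0.0229 CPM in knockout, against 3.49 ± 0.318 and 3.49 ± 0.498 CPM in control libraries (edgeR adjusted p = 1.50e-05, 6.96e-05, 1.53e-06 and 1.09e-06 for SPANXB1, SPANXA1, ROPN1 and ROPN1B).

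The counts of the lists that follow are to be read beside 14.0% lower and 14.0% higher over all tested genes. Of 19 tested enzymes and readers of DNA methylation, 8 were lower and 1 higher, with a median log2 fold change of -0.26. DNMT3A, which sets new methylation, fell to 3.05 ± 0.230 CPM in knockout, against 6.85 ± 0.932 CPM in control libraries (-1.17, SE 0.12, edgeR adjusted p = 1.56e-04), and DNMT3B to 5.89 ± 0.606 CPM, against 7.56 ± 0.596 CPM (-0.36, SE 0.11, adjusted p = 0.0355). TET1 and TET2, which remove methylation, fell too (-0.88 and -0.53, adjusted p = 0.00680 and 0.00468). DNMT1, the maintenance enzyme, stood at 264 ± 28.3 CPM in knockout and 326 ± 32.8 CPM in control libraries and was not called (-0.30, SE 0.10, adjusted p = 0.0553), while its cofactor UHRF1 fell (-0.41, SE 0.11, adjusted p = 0.0256). APOBEC3B, a cytidine deaminase (-0.65), and the readers ZBTB38 (-0.40) and UHRF2 (-0.17) were lower and ZBTB4 (0.35) higher. Among 23 tested repressors of germline genes, 8 were lower and none higher, with a median of -0.15. EZH2 and SUZ12 of Polycomb had the smallest p. EZH2 fell to 76.9 ± 3.66 CPM in knockout, against 107 ± 3.82 CPM in control libraries (-0.48, edgeR adjusted p = 5.17e-04), and SUZ12 to 174 ± 4.90 CPM, against 209 ± 7.88 CPM (-0.27, adjusted p = 0.00953). EED, also of Polycomb, was not called (-0.04, edgeR adjusted p = 0.711), and ATF7IP fell by more than SUZ12 (-0.41, adjusted p = 0.0105). Of 14 partners of MAGE and PRAME proteins, 3 were higher and 2 lower. TRIM31 and LNX1, RING-type ligases, rose (2.41 and 0.52), TRIM31 at a very low level (0.299 CPM in knockout and 0.0553 CPM in control libraries). TRIM28, partner of MAGEC2 and MAGEA3, fell by 0.19 on the log2 scale (edgeR adjusted p = 0.0422). CUL2, partner of PRAME, stood at 119.7 ± 5.28 CPM in knockout and 118 ± 6.88 CPM in control libraries and was not called (edgeR adjusted p = 0.880). Their part in the values of the cancer-testis genes was not tested.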

How the data were processed

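RNA-seq libraries of A375 cells were grouped by their titles into SOX10 knockout (3) and mCherry-guide control (3). RNA was purified on columns and stranded mRNA libraries were prepared, per the labels' protocols. HISAT2, HTSeq and hg38 appear in the submitters' processing notes, without versions; the strand setting and the treatment of reads matching several genes are not stated there or in the labels. The authors deposited raw counts per gene, with no row for reads outside genes, and no column was left out. All 58721 identifiers were found in GENCODE release 29, from which types, exons and coordinates (GRCh38) were taken.

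CPM values are counts divided by the library total times its TMM factor, and levels per length divide them by the annotated exon length. Genes kept by filterByExpr (19263) were compared with edgeR 4.0.16 in R 4.3.3, with TMM scaling and the two-sided quasi-likelihood test, knockout against control, without covariates. P-values were adjusted by Benjamini-Hochberg over all genes, with a threshold of 0.05, and a standard error is the absolute log2 fold change divided by the root of its F statistic. The fit was tested on simulated data. Shared sequence was measured as the share of all 50-base stretches of a gene's transcripts found in transcripts of another gene. Floors cover counting error only. Replicates differed by more than sampling noise, so none was merged.

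The members and lists were chosen with earlier results of these data known. Tested members with a mean of at least 1 CPM in a group are given by library, by range or by mean; of each other list the 2 genes with the smallest p in each direction, and every DNA methylation or type II MAGE gene of at least 5 CPM that passes. Genes named beyond this rule, the neighbouring genes among them, were picked with their values in view. A gene of the list of MAGE and PRAME partners is not reported here. The alternatives tried were DESeq2 1.42.0, limma-voom (limma 3.58.1), DESeq2 size factors or total counts as scaling, no filter, a stricter filter (at least 1 CPM in 3 libraries), a block for the replicate number, each library left out, and near-identical copies summed. Plots were made with matplotlib 3.10.9 in Python 3.11.15.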

Additional observations from a re-analysis of the deposited data

How the results depend on the processing

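Of 595 alternative values for 45 members, 499 kept their direction and side of the threshold. Leaving out each library in turn, the number of members called higher ranged from 7 (without control replicate 2) to 14 and of those called lower from 1 (without knockout replicate 1 or 2 or control replicate 2) to 3, against 11 and 3 with all libraries; the members' median log2 fold change ranged from 0.01 to 0.26. With near-identical copies summed, 3 of 29 tested rows were higher (the GAGE sum, MAGEA10 and MAGEB2) and 3 lower, by the construction of that fit. With the replicate number as a block, 22 were higher and 5 lower, and 4637 and 5176 of all genes. Among those it added were CSAG1 (edgeR adjusted p = 4.31e-07), CSAG2 (0.00263), CSAG3 (0.0174), CT45A1 (0.0078), MAGEC1 (1.26e-04), XAGE2 (0.00862), SSX2 (4.85e-04), MAGEA11 (6.83e-04), MAGEC2 (0.00106) and GAGE12F (0.00731). The labels tie the numbers to nothing. Deviations of same-numbered libraries correlated at 0.302, -0.00438 and 0.314 over 19263 genes. Knockout replicate 1 with control replicate 3 gave -0.332, and knockout replicate 3 with control replicate 1 gave -0.284. Knockout replicate 2 stood near 0 with every control library (-0.0366, -0.00438 and 0.0379 in their order). Whether same-numbered libraries were handled together is not stated and was not tested.

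The direction turned in no called member. Among members not called, log2 fold changes changed sign with total counts as scaling in CT45A10 (0.032), MAGEA2 (0.022), MAGEA2B (0.017), MAGEA3 (0.0079), MAGEA4 (0.0068), SSX2IP (0.030), XAGE1A (0.015) and XAGE1B (0.036). With at least 1 CPM in 3 libraries they did so in CT45A10 (0.0058), SSX2IP (0.0066) and XAGE1B (0.012), in limma-voom in CT45A10 (0.018), with the replicate block in CT45A10 (0.0065), and for XAGE1B in DESeq2 (0.0025) and with its size factors (0.0044). Leaving out 1 library gave ranges of -0.13 to 0.24 in CT45A10, -0.060 to 0.18 in CT45A2, -0.14 to 0.091 in CT45A3, -0.070 to 0.21 in MAGEA12, -0.10 to 0.075 in MAGEA2, -0.072 to 0.051 in MAGEA2B and -0.079 to 0.030 in MAGEA3. The ranges were -0.14 to 0.11 in MAGEA4, -0.058 to 0.25 in PAGE2, -0.093 to 0.24 in PAGE2B, -0.17 to 0.12 in PAGE5, -0.023 to 0.012 in SSX2IP, -0.10 to 0.083 in XAGE1A and -0.089 to 0.11 in XAGE1B. The cause was not tested. At 3 libraries a group and without the replicate block, differences within these ranges were not detectable. The ranges describe the estimates and set no limit of detection. CSAG1, at a log2 fold change of 0.28 (SE 0.10) with all libraries, was not called either. Copies that share reads limit what single GAGE, CT45A, SSX, XAGE1 and MAGEA2 values can show.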

Other observations

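The same name prefixes also cover 25 rows that are not protein-coding, mostly pseudogenes, of which 4 had enough counts for the test and none passed it. MAGEA4-AS1, annotated antisense to MAGEA4, averaged 7.59 ± 0.247 CPM in knockout and 6.84 ± 0.227 CPM in control libraries (SD, n = 3 each), with no overlap (log2 fold change 0.15, SE 0.08, edgeR adjusted p = 0.199). It lies opposite MAGEA4 over 172 exon bases, and no source says whether strand was used in counting, so reads of both may be mixed. The pseudogene CSAG4 averaged 2.01 CPM in knockout and 2.07 CPM in control libraries and was not called (edgeR adjusted p = 0.885).

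Some further X-linked cancer-testis genes outside the families were singled out after their values were seen. SPANXC stood at 2.52 ± 0.272 CPM in knockout and 0.565 ± 0.201 CPM in control libraries and SPANXD at 0.953 ± 0.145 CPM and 0.109 ± 0.0531 CPM (log2 fold changes 2.16 and 3.10, edgeR adjusted p = 1.80e-04 and 1.85e-04). The SPANX genes are near-identical copies, so their reads may be shared. The tested VCX genes, which lie at the tip of the short arm, went the other way. VCX stood at 2.52 ± 0.278 CPM in knockout and 4.50 ± 0.591 CPM in control libraries and VCX3B at 1.72 ± 0.238 CPM and 3.71 ± 0.318 CPM (log2 fold changes -0.83 and -1.11, edgeR adjusted p = 0.00199 and 4.02e-04). CT83, also on chromosome X, rose to 6.46 ± 0.831 CPM in knockout, against 3.29 ± 0.587 CPM in control libraries (edgeR adjusted p = 0.00149, log2 fold change 0.97, SE 0.15), and IL13RA2 fell to 471 ± 45.0 CPM in knockout, against 714 ± 67.4 CPM (-0.60, SE 0.09, adjusted p = 0.00151).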
